A study of Mus musculus with 15 samples.

Results

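The genes followed here were 38 genes of the cell cycle, all of which occurred once among the 26145 genes of each deposited count matrix. They were taken by name and fall into 3 groups by role: 8 G1 cyclins and kinases, 10 replication genes and 20 mitotic genes. Their transcripts were counted as unique molecular identifiers (UMIs, 1 per captured RNA molecule) in single cells of the prefrontal cortex (PFC) of male C57BL/6N mice. The 15 libraries comprised 3 from P21 mice (3 weeks old), with no treatment recorded, and 12 from P60 mice (8-10 weeks old). The P60 mice had self-administered cocaine or saline through a jugular catheter and were sampled at maintenance, 48 h after withdrawal or 15 days after withdrawal, with 2 libraries for each treatment and time. Tissue of a pair of mice was pooled in each P60 library, so an animal could not be followed. The number of mice behind each P21 library is not given in the labels. By the methods, too few P21 mice were used for each library to hold a pair of its own, so if P21 tissue was pooled in the same way some P21 libraries share animals. Tests with P21 count libraries, and their p-values measure the spread between libraries, which may be technical. The labels name the source as PFC but the tissue field as NAc. In the study the catheter was implanted at P60, so these mice were older when sampled, and older again after withdrawal. No library held both ages, so age cannot be told apart from the preparation of the libraries. Nor can it be told apart from the food restriction and training, surgery and self-administration that only the P60 mice had.

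Cells commit to division in G1, when D-type cyclins activate the kinases Cdk4 and Cdk6, and cyclin E with Cdk2 then opens S phase. Replication genes encode the clamp Pcna, the Mcm helicase that unwinds DNA, and the enzymes Rrm1, Rrm2 and Tyms that make deoxynucleotides. Mitotic genes are transcribed late in the cycle, and their products condense and segregate chromosomes (Top2a, the cyclins A and B with Cdk1, the kinetochore proteins Cenpe and Cenpf, the Aurora kinases and Plk1) or destroy regulators at mitotic exit (Cdc20, Ube2c). In the postnatal cortex, neurons have left the cycle for good. Oligodendrocyte precursor cells (OPCs) go on dividing into adulthood, microglia renew themselves by division, and brain vessels still grow in the first postnatal weeks.

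Mitotic genes share promoter elements, the CCAAT box bound by NF-Y and the cell cycle homology region (CHR), whereas many replication genes carry E2F sites. RefSeq promoters (GRCm38.p6) were at hand for 31 of the 38 members. The words searched, on both strands, in the 250 bases before the start were CCAAT for the CCAAT box, TTTGAA for the CHR, and TTCCCGC or TTGGCGC for E2F. The reverse of TTGGCGC ends in the first 4 letters of CCAAT, so these words can overlap. CCAAT stood in 25 of the 31 promoters (80.6%) and in 37.5% of the 27025 genes with a promoter. It was in 15 of 17 mitotic genes, in 8 of 9 replication genes and in 2 of 5 G1 genes. An E2F word was in 25.8% of the members and 6.45% of all genes, and in 4 of the 9 replication genes. TTTGAA was in 22.6% of the members and 18.3% of all genes, and all 7 members that held it also held CCAAT, a pair found in 7.34% of all genes. These are matches of letters, not sites of binding.

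The last 120 bases before the start are shown for Cdk1 and Ube2c, which were lower at P60 than at P21 in vessel cells, for Top2a, a leading gene of the cycling OPCs, and for Mcm6, a replication gene with E2F words. Capitals mark the words above, and each sequence runs 5′ to 3′ on the strand of its gene.
Cdk1 (chr10:69352913-69353032, minus strand): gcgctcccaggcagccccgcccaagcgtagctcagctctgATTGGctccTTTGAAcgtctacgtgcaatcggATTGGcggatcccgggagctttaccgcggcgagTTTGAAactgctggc
Ube2c (chr2:164769809-164769928, plus strand): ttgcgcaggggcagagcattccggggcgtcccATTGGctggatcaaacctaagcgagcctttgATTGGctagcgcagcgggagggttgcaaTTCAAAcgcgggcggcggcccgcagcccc
Top2a (chr11:99024190-99024309, minus strand): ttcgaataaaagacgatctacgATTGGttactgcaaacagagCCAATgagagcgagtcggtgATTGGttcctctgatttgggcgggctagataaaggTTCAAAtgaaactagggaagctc
Mcm6 (chr1:128359706-128359825, minus strand): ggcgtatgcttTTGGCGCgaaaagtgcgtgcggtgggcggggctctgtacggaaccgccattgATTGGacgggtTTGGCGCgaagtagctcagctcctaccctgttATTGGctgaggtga
The 3 mitotic promoters each held CCAAT boxes with a CHR nearer to the start, at 15, 29 and 23 bases before it in Cdk1, Ube2c and Top2a. They are among the 6 of 17 mitotic genes (35.3%) that held a CHR word. Mcm6 held E2F words 109 and 46 bases before the start with CCAAT boxes between and after them.

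The annotation retains 35360 of the 43795 deposited barcodes as cells, 10538 at P21 and 24822 at P60. Cells were classed by their cluster name into 8 types: excitatory neurons (20377 cells), inhibitory neurons (2153), astrocytes (1816), Endo (5596), microglia (1630), mature oligodendrocytes (2126), newly formed oligodendrocytes (NF Oligo, 854) and OPCs (808). Retained cells held 8375172 to 42892922 UMIs per library. At least 96.7% of the cells of a class carried 3 or more of the markers of its name, except for OPCs, with 88.9% at P60 and 56.1% of 41 cells at P21. In Endo, 55.2% of P21 cells and 61.9% of P60 cells also held 3 or more of 6 mural markers, so this class mixes endothelial and mural RNA. A pair of libraries shared at most 40 barcodes. Levels are given as CPM, the UMIs of a gene scaled to a common total of UMIs of the cell type in a library, for types with at least 10 cells there and without mitochondrial and ribosomal protein genes. In such sums, fewer cells with a transcript and less of it per cell cannot be told apart. P-values measure the spread between libraries.

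In the adult cortex the mitotic genes were concentrated in OPCs. All 20 mitotic members had their highest mean level there, 12 of them above the next cell type in every library compared. The summed level of the 20 genes in P60 OPCs was 1374 ± 1002 CPM (SD, n = 11 libraries) and ranged from 168.5 to 3745 CPM. The next type, microglia, had 152 ± 257 CPM (n = 12), or 92.2 CPM without library 10, and OPCs were above microglia in 11 of 11 libraries. Inhibitory neurons (32.5 ± 13.6 CPM), Endo (32.0 ± 6.1), mature oligodendrocytes (22.9 ± 9.9), excitatory neurons (22.7 ± 3.6), NF Oligo (19.8 ± 17.0) and astrocytes (14.4 ± 8.4) followed. Among these neighbours only Endo above mature oligodendrocytes held in nearly every library (11 of 12), and the order of the others changed between libraries. The clusters were made from these cells, so types are described and not tested against each other.

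**Figure D1:**
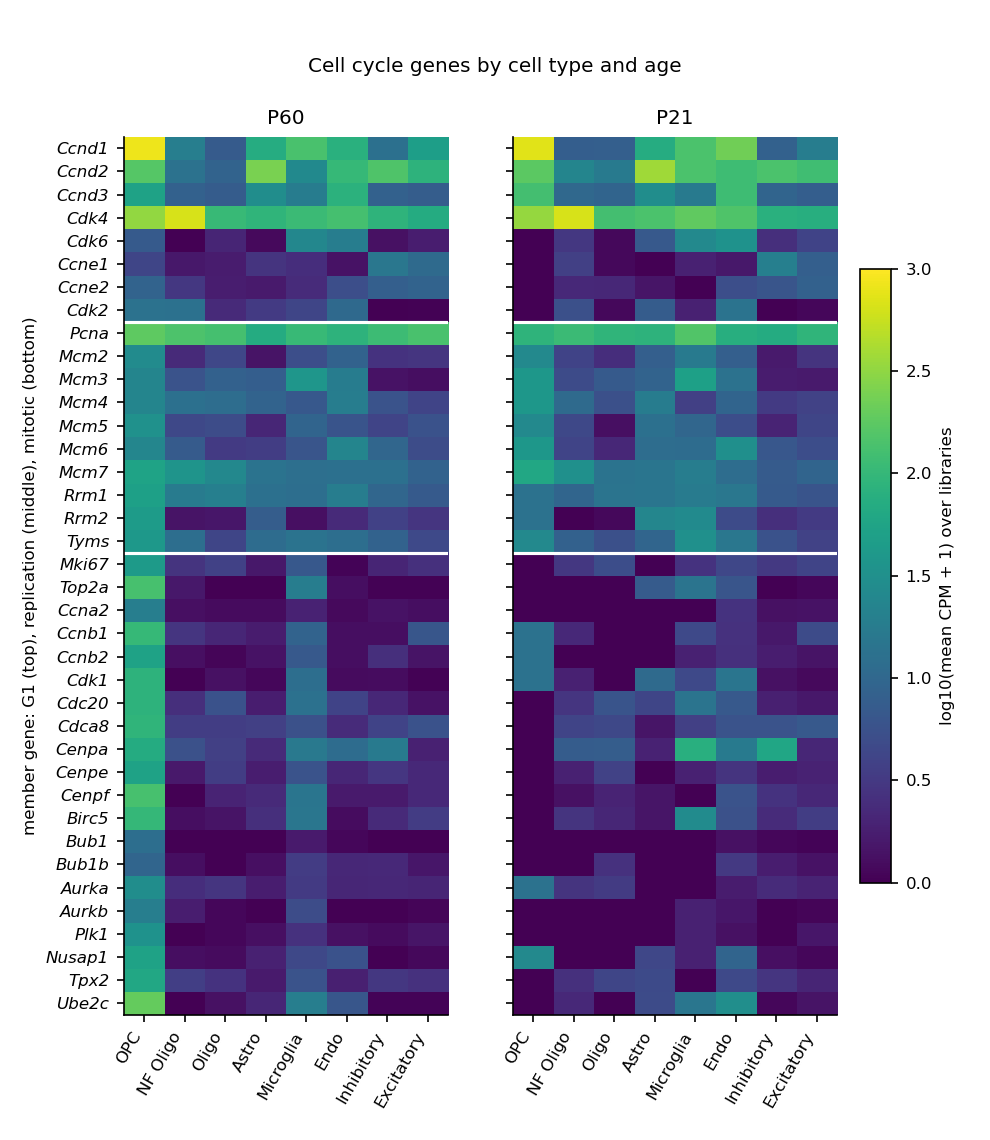
Mean level of each of the 38 cell cycle genes (rows, grouped as G1, replication and mitotic) in 8 cell types (columns) at P60 (left) and P21 (right), as log10(CPM + 1) of the mean over libraries with at least 10 cells; P21 OPCs come from 1 library. The mitotic block is bright in P60 OPCs and dark in most other types, whereas Cdk4 and Pcna are present in every type and Ccnd2 is low in NF Oligo and Oligo.

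The leading mitotic members in P60 OPCs were Ube2c, Cenpf and Top2a. Ube2c, the ubiquitin-conjugating enzyme of the anaphase-promoting complex, had a lowest, median and highest library of 21.1, 150 and 564 CPM. Cenpf, a kinetochore protein, had 3.24, 85.2 and 461 CPM, and Top2a, which untangles sister chromatids, had 27.5, 104 and 428 CPM. In each of the 3 genes the highest library exceeded the median by more than the median itself, so the level in OPCs differed widely between libraries of the same age.

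Replication members were also highest in OPCs for 9 of the 10 genes, but only Tyms, the thymidylate synthase, exceeded the next type in all 11 libraries. Pcna, the sliding clamp, had a lowest, median and highest of 75.1, 173 and 312 CPM in OPCs, and its mean there of 180 ± 63.8 CPM was above NF Oligo (146 ± 56.4 CPM) in 7 of 11 libraries. Pcna was thus present in every cell type, including neurons that do not divide. Mcm7, a helicase subunit, ranged from 28.4 to 106 CPM and Rrm1, the large subunit of ribonucleotide reductase, from 9.39 to 102 CPM in OPCs. Mcm3 was the exception, with 36.4 ± 8.57 CPM in microglia against a mean of 22.1 CPM (4.86 to 65.2 CPM) in OPCs, and it was higher in microglia in 9 of 11 libraries.

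The G1 members were spread over cell types. Ccnd1, cyclin D1, was an OPC gene, with a lowest, median and highest of 660, 810 and 1044 CPM in P60 OPCs and 138 ± 36.9 CPM in microglia, the next type, in all 11 libraries. Ccnd2 was highest in astrocytes (245 ± 28.1 CPM), above OPCs (160 ± 47.7 CPM) in 10 of 11 libraries. Ccnd3 was highest in Endo (82.9 ± 11.9 CPM), above OPCs in 10 of 11 libraries. Cdk4, the partner of the D cyclins, was highest in NF Oligo (657 ± 107 CPM), above OPCs (329 ± 40.0 CPM) in 11 of 11 libraries. NF Oligo are cells that have stopped dividing, and their Ccnd1 level was 18.4 ± 15.5 CPM. Cdk6 was highest in microglia (23.5 ± 10.0 CPM), above Endo (17.5 ± 5.73 CPM) in 11 of 12 libraries. Ccne1 was highest in inhibitory neurons (14.3 ± 7.25 CPM), above excitatory neurons in 8 of 12 libraries, and Ccne2 and Cdk2 in OPCs did not stand above the next type (higher in 6 and in 5 of 11 libraries).

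The mitotic transcripts of OPCs were held by few cells. A cell was said to hold the mitotic set when it had UMIs of 3 or more of the 20 mitotic members. At P60, 44 of 767 OPCs (5.74%, exact 95% interval 4.20% to 7.62%, counting error only) did so, and 41 of them held 5 or more. Excitatory neurons, which should lack these transcripts, gave 0.228% of 14443 cells with none at 5 or more, at a median depth of 13620 UMIs against 3405 UMIs for OPCs. Of the 44 OPCs, 39 were in a single cluster of 53 cells, OPC_1, which had members in all 12 P60 libraries. The other 714 OPCs included 5 such cells (0.700%). The clusters were made from the same cells, so this concentration is a description.

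The 44 cells held a median of 15 of the 20 mitotic members and up to 20. They had a median of 4527 UMIs, against 3384 UMIs for the other 723 OPCs. Genes that did not enter the count moved with it. A list of 38 further mitotic genes summed to 16424 CPM in these cells and to 647 CPM in the other OPCs, 36 of the 44 cells (81.8%) held 2 or more replication members against 16.9% of the others, and the replication members summed to 2433 against 308 CPM. Rrm2, the S-phase subunit of ribonucleotide reductase, was found in 54.5% of the 44 cells and 1.24% of the others. The chromatin protein Hmgb2 was found in 97.7% and 30.3%. Ccnd1 differed far less (1037 and 823 CPM), and so did Cdk4 (495 and 317 CPM), while Pdgfra, the receptor that marks OPCs, stood at 818 and 755 CPM. Olig1, an OPC transcription factor, was at 234 CPM against 577 CPM. Cdkn1a, the p21 inhibitor of cyclin-dependent kinases, was found in 40.9% of the 44 cells and 7.33% of the others.

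To compare shares between libraries of different depth, each cell was thinned to 2000 UMIs and cells with fewer were left out (none of the P60 OPCs). At this depth 8.35 ± 7.55% of P60 OPCs (n = 11 libraries) held 2 or more mitotic members, against 0.0916 ± 0.0443% of excitatory neurons. The OPC share was 4.88, 5.13, 9.08, 1.01, 7.94 and 15.0% in the cocaine libraries 1, 4, 6, 8, 9 and 10 and 3.92, 5.19, 6.08, 28.4 and 5.13% in the saline libraries 2, 5, 7, 11 and 12. Without thinning the mean was 9.60 ± 8.92%. Library 11 stood apart, with 11 of its 45 OPCs (24.4%) holding 3 or more mitotic members, and without it the mean summed mitotic level of P60 OPCs was 1137 CPM. P60 library 3 had 3 OPCs and gave no share.

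**Figure D2:**
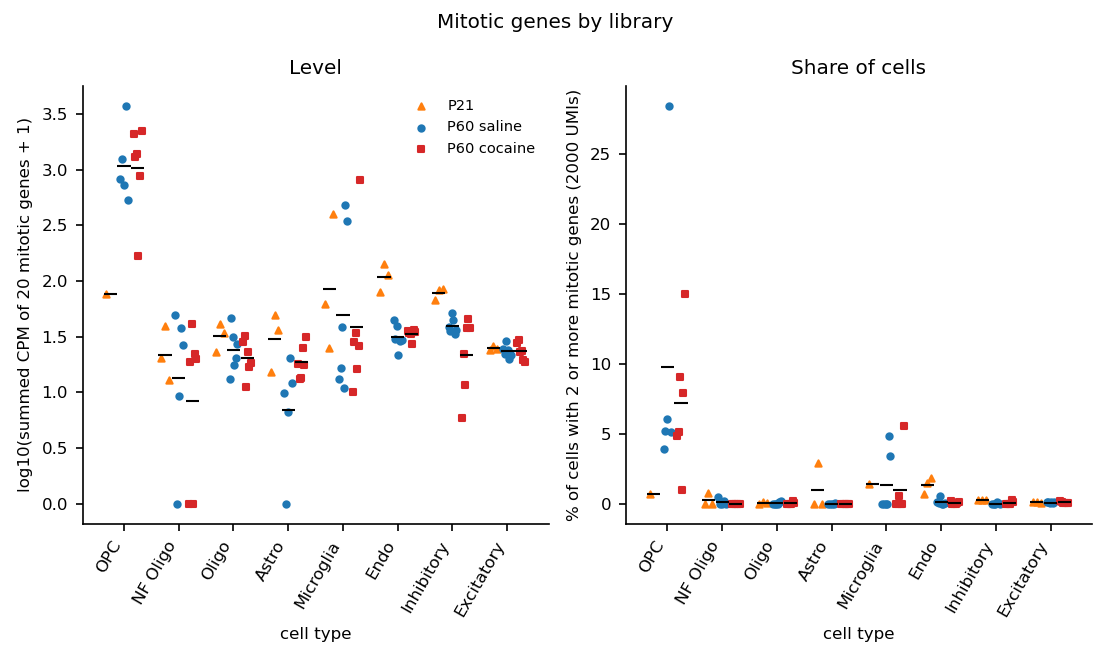
Summed level of the 20 mitotic genes as log10(CPM + 1) (left) and percent of cells with UMIs of 2 or more of them after thinning to 2000 UMIs (right), by cell type. Each point is a library with at least 10 cells, black lines are means of the plotted values, and P21, P60 saline and P60 cocaine are orange triangles, blue circles and red squares; within each P60 library the OPC level lies above that of every other type, and 1 saline library reaches 28.4% of OPCs.

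Adult microglia held few such cells. Of 1448 P60 microglia, 8 (0.552%, exact 95% interval 0.239% to 1.09%) held 3 or more mitotic members, and the same 8 held 5 or more, with a median of 13.5. They came from 4 libraries: 1 in library 6, 2 in each of libraries 10 and 11, and 3 in library 12. The summed mitotic level of microglia was accordingly 804, 482 and 347 CPM in libraries 10, 11 and 12 and 9.17 to 37.7 CPM in the other 9. Libraries 10, 11 and 12 held 36, 54 and 89 microglia, and the other 9 held 62 to 195, so each high level rested on 2 or 3 such cells. The 3 high libraries were from 15 days after withdrawal and included both treatments, and the other 15-day library, library 9, was among the low ones with 25.2 CPM. Of genes the selection did not use, Hmgb2 was found in 8 of the 8 cells and in 53.6% of the other 1440, and Cdkn1a in 4 of the 8 (50%) and 22.7% of the others. Of the 8 cells, 6 held 3 or more microglial markers and 2 held 3 of no list. Excitatory markers were held by 2, and astrocyte, endothelial and macrophage markers by 1 each. Among P60 NF Oligo and astrocytes, 0 of 336 and 0 of 1495 cells held the mitotic set, which allows a share of up to 0.893% and 0.201% (a limit of 3 counts of the total).

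Between P21 and P60, 8 members differed in Endo. To ask which members changed across adolescence, the 3 P21 libraries were compared with the 6 saline P60 libraries in each type by edgeR's quasi-likelihood test on summed counts, with p adjusted by the Benjamini-Hochberg method over all genes tested in the type and called under 0.05. In Endo, 20 members passed the filter on low counts and 8 were called, 7 lower and 1 higher at P60, or 40.0% of those tested where 16.6% of all 10358 genes tested were called. The median change of the 20 was -0.39 (log2, P60 minus P21), and that of all genes was 0.02. A member high at P21 could pass the filter through the P21 libraries alone, as Cdk1 did and Nusap1 may have done. The share called and the median therefore describe the members that passed and are not read against the background. The 18 members that did not pass had 4 to 73 UMIs over these libraries. Without P21 library 2 or 3 the count of calls was 5 or 4, while Ccnd1, Ccnd3 and Ube2c were called whichever library was left out. The share of all genes called in those fits is not given, so these counts are not read against it. In Endo, P21 libraries 2 and 3 were far more alike (chi-square per degree of freedom 1.69) than either was to library 1 (11.4 and 10.3), and with those 2 summed as 1 library 4 of 19 members were called.

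The mitotic members called in Endo were Cdk1, Ube2c, Nusap1 and Cenpa, each lower at P60. Cdk1, the kinase that drives entry into mitosis, stood at 8.84, 15.2 and 17.1 CPM in the P21 libraries, while 4 of the 6 saline P60 libraries had no UMI of it and the highest had 1.29 CPM. The groups did not overlap (107 UMIs at P21 and 3 at P60, a ratio of 36.0 with a counting interval of 12.0 to 177). Since Cdk1 passed the filter only through P21, its call is given as a description. Ube2c had 19.2, 37.2 and 32.6 CPM at P21 and a lowest, median and highest of 2.01, 5.94 and 10.2 CPM at P60. It fell by 2.33 ± 0.29 on the log2 scale (adjusted p = 7.11e-05), and the groups did not overlap. Nusap1, a spindle protein, fell by 1.53 ± 0.45 (adjusted p = 0.0291), from 7.31, 9.71 and 7.75 CPM to between 0 and 5.75 CPM. It had 66 UMIs at P21 and only 25 over the 6 saline P60 libraries. Nusap1 may thus also have passed the filter through P21 alone, so its call is given as a description. The cocaine P60 libraries held 3.19 to 11.6 CPM of Nusap1 and overlapped P21, and with all 12 P60 libraries its adjusted p was 0.0981. Cenpa, the centromeric histone, fell by 0.73 ± 0.24 (adjusted p = 0.0465) with overlapping groups, 13.4 to 17.3 CPM at P21 and 8.46 to 14.1 CPM at P60. The summed mitotic level in Endo was 78.0, 142 and 113 CPM at P21 and 20.5 to 43.7 CPM over all 12 P60 libraries, again with no overlap.

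Of the 7 G1 members tested in Endo, 3 were lower at P60. Ccnd1 had 177, 238 and 246 CPM at P21 and 66.8, 77.7 and 92.8 CPM as the lowest, median and highest at P60, a change of -1.62 ± 0.13 (adjusted p = 1.37e-06). Every P21 library was above every saline P60 library. Ccnd3 had 150, 99.7 and 96.3 CPM at P21 and 68.8, 80.5 and 91.4 CPM at P60 (-0.67 ± 0.15, adjusted p = 0.00599), while cocaine P60 libraries reached 105 CPM and overlapped P21. P21 library 1 was the highest for Ccnd3 and the lowest for Ccnd1. Cdk6, the second kinase of the D cyclins, fell by 0.86 ± 0.23 (adjusted p = 0.0183) with overlapping groups, from 26.2 to 37.5 CPM at P21 to 10.1 to 28.3 CPM at P60. Ccnd2, Cdk4, Ccne2 and Cdk2 were not called.

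Of 9 replication members tested in Endo, only Mcm4 was called, and it was higher at P60 (0.94 ± 0.30, adjusted p = 0.0409), with 6.40, 10.98 and 7.75 CPM at P21 and 10.1 to 26.2 CPM at P60, so the groups overlapped. Rrm2 did not pass the filter and was not tested. It had 2.44 to 6.12 CPM at P21 (30 UMIs) and 0 to 1.21 CPM in saline P60 libraries (4 UMIs), and the cocaine P60 libraries, with 0 to 3.38 CPM (13 UMIs), overlapped P21. The summed replication level was 180 ± 22.1 CPM at P21 and 201 ± 14.2 CPM in saline P60 libraries. Of 15 further replication genes tested, 4 were higher at P60 (among them Rfc4, Fen1 and Rpa2) and Slbp was lower, 33.3% called beside the 16.6% of all genes. Of 10 further mitotic genes only Cks2, a Cdk1 subunit, was called (-1.14 ± 0.32, adjusted p = 0.0223), a share of 10% that lay below that of all genes. Among 5 inhibitors of cyclin-dependent kinases, Cdkn2b (-2.05 ± 0.22), Cdkn1a (-1.05 ± 0.14) and Cdkn1c (-0.76 ± 0.21) were lower at P60 and Cdkn2c was higher (0.52 ± 0.16), 4 of 5 (80%). Of 10 pocket proteins and E2F factors, only Tfdp2 was called (lower at P60, 10%), and of 6 genes of quiescence and cycle exit Ccng2 was lower and Gas6 higher (33.3%).

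**Figure D3:**
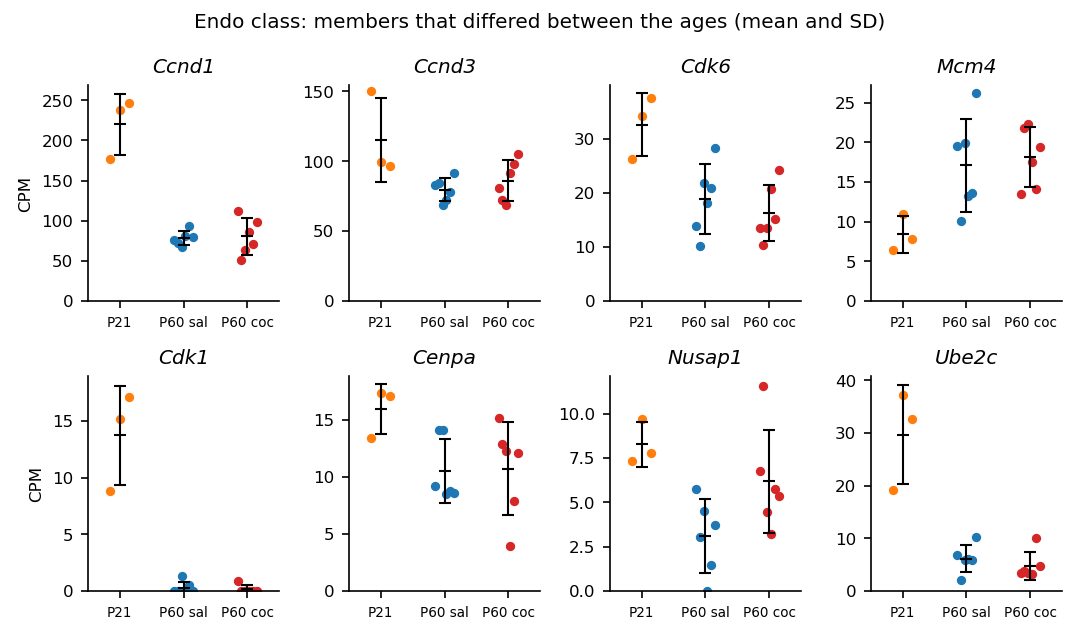
Level (CPM, linear axes from 0) in Endo of the 8 members called between the ages, one point per library, with mean and SD in black for P21 (n = 3), P60 saline (n = 6) and P60 cocaine (n = 6). Of the 8 panels, 7 have the higher mean at P21 and Mcm4 has it at P60. Ccnd1, Ccnd3, Cdk1, Nusap1 and Ube2c do not overlap between P21 and P60 saline. The members were chosen by their calls in these libraries, and the share of all genes without overlap is not given.

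The share of Endo cells with mitotic members was also lower at P60 at this depth, but not every depth passed the test. After thinning to 2000 UMIs, 0.687, 1.51 and 1.82% of P21 Endo cells held 2 or more mitotic members, and 0.129 ± 0.215% of saline P60 cells did so, with 0.554% in the highest library. The difference was -1.21 percentage points (exact two-sided permutation test over 3 and 6 libraries, p = 0.0238, the smallest this design allows, adjusted p = 0.0476 over 4 tests). For 2 or more of all 38 members the share was 41.5, 48.4 and 48.5% at P21 and 33.6 ± 3.20% at P60, a difference of -12.6 points with the same p values and no overlap. Excitatory neurons, as background, gave 0.0980 ± 0.0315% at P21 and 0.0905 ± 0.0446% in saline P60 libraries for the mitotic share. Thinning left out 246 of 2032 P21 and 9 of 1856 saline P60 Endo cells, and without it the mitotic share was 3.61 ± 0.89% and 0.87 ± 1.03%. The call was lost without thinning, where the mitotic difference was -2.74 points (adjusted exact permutation p = 0.107) and that for all members -7.11 points (0.143). It was also lost at 1000 UMIs, with differences of -0.600 and -7.27 points (adjusted exact permutation p = 0.0714 for both). With P21 libraries 2 and 3 as 1 sample the smallest p this test allows is 0.0714, so it could not pass.

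As counted, 21 of 2032 P21 Endo cells (1.03%, exact 95% interval 0.641% to 1.58%) and 2 of 3564 P60 Endo cells (0.0561%, 0.00680% to 0.203%) held 3 or more mitotic members. The 21 cells came as 5, 8 and 8 from the 3 libraries and had a median of 7887 UMIs, against 3894 UMIs for the other Endo cells. All 21 held 3 or more endothelial markers and 19 held 3 or more mural markers. The summed level of 6 mural markers was 4328 to 5331 CPM in P21 libraries and 5545 to 7887 CPM in saline P60 libraries, with none of them at 0, but 4767 to 7887 CPM over all 12 P60 libraries, which overlapped P21. Vtn, Acta2 and Tagln were higher in every saline P60 library than at P21, Rgs5 and Pdgfrb overlapped, and Kcnj8 was at 303 to 477 CPM at P21 and 263 to 341 CPM at P60. The part of these markers in the results was not tested. In the Endo cells with fewer than 3 mural markers (910 at P21, 678 in saline P60 libraries), P21 remained above P60 without overlap for Ccnd1 (200 to 232 against 33.8 to 75.7 CPM), Cdk1 (8.98 to 16.6 against 0 to 2.11 CPM), Ube2c (17.1 to 23.8 against 3.53 to 15.7 CPM), Ccnd3 (106 to 154 against 56.6 to 92.7 CPM) and Nusap1 (6.53 to 9.50 against 0 to 6.32 CPM). Cdk6 and Mcm4 overlapped there, as did Cenpa, whose means of 10.2 CPM at P21 and 11.4 CPM at P60 lay the other way. With the 21 cells and their 1 saline P60 counterpart taken out, Ccnd1 was at 176 to 238 CPM against 66.8 to 92.8 CPM, and Cdk1 at 8.65 to 13.8 against 0 to 1.29 CPM. Ccnd3, Ube2c and Mcm4 did not overlap either, whereas Nusap1 then overlapped (4.95 to 7.83 against 0 to 5.75 CPM) and Cenpa had means of 11.4 and 10.4 CPM. These subsets were compared without a test. The members were chosen by their calls in these same libraries, and the share of all genes without overlap is not given. The separation in the subsets is therefore a description and no further support.

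In neurons Ccnd1 changed in the direction opposite to Endo, whereas Cdk6 in excitatory and Cenpa in inhibitory neurons were lower at P60, as in Endo. In excitatory neurons 25 members were tested and 6 called (24.0%), below the 40.3% of all 13199 genes. Ccnd1 rose by 1.35 ± 0.18 on the log2 scale (adjusted p = 0.000203), from 21.6, 16.9 and 15.1 CPM at P21 to a lowest, median and highest of 31.9, 42.9 and 59.0 CPM at P60. Pcna rose by 0.72 ± 0.15 (adjusted p = 0.00283), from 71.1, 103 and 94.8 CPM to between 122 and 170 CPM. Cdk6 fell by 1.99 ± 0.29 (adjusted p = 0.000215), from 1.95, 3.31 and 3.89 CPM to between 0.489 and 1.02 CPM. Ccne1 (0.60 ± 0.13), Mcm5 (0.63 ± 0.17) and Tpx2 (0.85 ± 0.25) rose as well, each without overlap between P21 and saline P60. The cocaine P60 libraries overlapped P21 for Ccne1 (6.93 to 10.7 CPM against 6.46 to 8.30) and for Tpx2 (0.755 to 2.28 CPM against 0.788 to 1.24), a spindle assembly factor with a mean of only 1.89 CPM in saline P60 libraries. The summed mitotic level of excitatory neurons was 23.8 ± 1.0 CPM at P21 and 22.6 ± 3.0 CPM in saline P60 libraries.

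In inhibitory neurons 10 members were tested and 4 called (40.0%), where 19.2% of all 8831 genes were called. A member low at P21 could pass the filter through P60 alone. The share called thus describes the members that passed and is not read against the background. Cenpa fell by 1.70 ± 0.25 (adjusted p = 0.000188), from 48.8, 64.4 and 64.2 CPM at P21 to a lowest, median and highest of 10.1, 15.5 and 37.2 CPM at P60. The groups did not overlap, and at P21 Cenpa alone (59.1 ± 8.98 CPM) made up most of the summed mitotic level of these neurons (77.4 ± 9.41 CPM). Pcna rose by 0.78 ± 0.15 (adjusted p = 0.00151), from 63.3, 70.6 and 72.4 CPM to between 82.6 and 137 CPM, as in excitatory neurons. Ccnd1 (1.09 ± 0.33, adjusted p = 0.0277) and Tyms (1.08 ± 0.35, adjusted p = 0.0379) were called on 47 and 30 UMIs at P21, and the Ccnd1 groups overlapped. Both were low at P21 and may have passed the filter on low counts through P60 alone, so these calls are given as a description. The cocaine P60 libraries overlapped P21 for both, with 2.91 to 9.86 CPM of Tyms against 3.39 to 5.61 CPM and 0 to 14.8 CPM of Ccnd1 against 5.61 to 8.87 CPM. With all 12 P60 libraries neither was called (edgeR adjusted p = 0.229 for Tyms and 0.0736 for Ccnd1). Without P21 library 2 or 3, or P60 library 7 or 11, only 2 members were called. The share of all genes called in those fits is not given beside this count. Of the further lists, Dut, which removes dUTP, fell in excitatory (-1.65 ± 0.32) and inhibitory neurons (-2.05 ± 0.27), both called. In excitatory neurons, where 40.3% of all genes were called, 12 of 22 further replication genes (54.5%, 9 higher at P60) and 7 of 15 further mitotic genes (46.7%, 6 higher) were called, among them Incenp, a chromosomal passenger protein (1.62 ± 0.20). Of 4 inhibitors of cyclin-dependent kinases tested there, Cdkn1c (2.00 ± 0.22) and Cdkn2d (1.13 ± 0.38) were higher at P60 and Cdkn1b (-0.70 ± 0.15) was lower. Of 7 genes of quiescence and cycle exit, Btg2 (-1.18 ± 0.10) and Gas6 (-0.65 ± 0.12) were lower and Ccng1 (0.48 ± 0.12) was higher. Of 11 pocket proteins and E2F factors, 2 were called (18.2%). In inhibitory neurons 4 of 12 further replication genes (33.3%) and 2 of 7 further mitotic genes (28.6%) were called, Hmgb2 among them (1.49 ± 0.31). Hmgb2, at 8.29 ± 0.70 CPM at P21, may also have passed the filter through P60 alone.

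**Figure D4:**
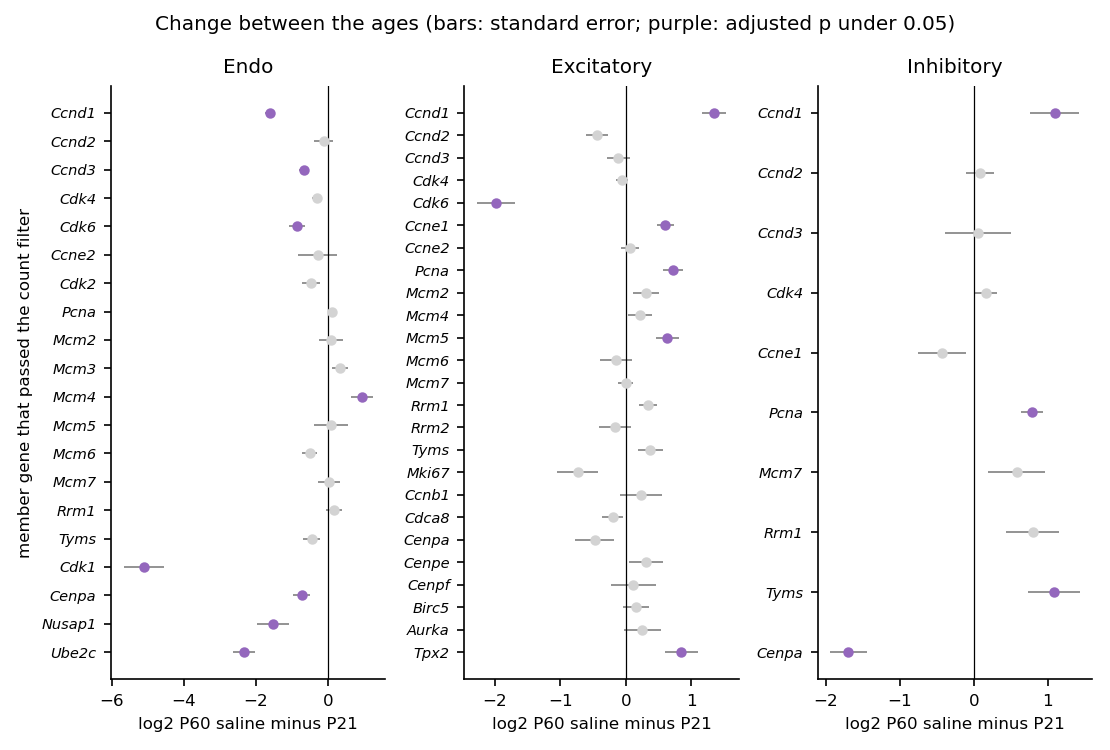
Log2 change (saline P60 minus P21) of every member that passed the count filter in Endo, excitatory and inhibitory neurons, with the standard error of the edgeR fit as bars; purple marks an adjusted p under 0.05. Ccnd1 lies at -1.62 in Endo and at 1.35 and 1.09 in the neurons, and the position of Cdk1 at -5.11 rests on 3 UMIs at P60.

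In astrocytes (5 members tested; 1.10% of 5724 genes called), microglia (6; 0.714% of 3920), mature oligodendrocytes (3; 20.3% of 5036) and NF Oligo (3; 1.99% of 4628) edgeR called no member. At an unadjusted p under 0.05 the counts were 0, 0, 1 and 0. DESeq2 also called 0 in each. In a simulation, 2.63% of genes changed by 1 log2 unit were recovered in microglia, against 67.3% in Endo and 91.0% in excitatory neurons. It gave all genes of a type the same spread, which real genes do not have, so these rates are rough. Astrocytes, mature oligodendrocytes and NF Oligo were not simulated. Cdkn1a was called in microglia, lower at P60 (-1.27 ± 0.25, adjusted p = 0.0281). In NF Oligo the share of cells with 2 or more members was 27.4 ± 3.55% at P21 and 34.8 ± 9.70% in 5 saline P60 libraries (difference 7.41 points, exact permutation p = 0.357, adjusted p = 0.476), and for mitotic members it was 0.249 ± 0.432% and 0.124 ± 0.198% (p = 0.750). Both were within the spread between libraries. These shares cover annotated cells only, and most P21 barcodes with the mitotic set lay outside the annotation, as described below. Only 1 P21 library had 10 microglia of 2000 UMIs, so their share was not tested. Thinned to 1000 UMIs, 0.671, 0 and 8.33% of P21 microglia held 2 or more mitotic members, and 1.05 ± 1.68% of saline P60 microglia. The P21 libraries had only 149, 21 and 12 microglia, so these shares rest on few cells.

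OPCs of the cluster column could not be tested between the ages because it holds 41 of them at P21, in 3 libraries of 28, 7 and 6 cells, and none of the 41 held 3 or more mitotic members, which allows a share of up to 7.32% by the same limit of 3 counts. In P21 library 1 the summed mitotic level of OPCs was 74.9 CPM, below the lowest P60 library (168.5 CPM). That level came from 28 cells, with 1 UMI each of Ccnb1, Ccnb2, Cdk1 and Aurka and 2 of Nusap1. Most P21 barcodes with the mitotic set lay outside the annotation, as described below. In the same OPCs the G1 level was 1373 CPM, within the P60 range of 1193 to 1678 CPM, and Ccnd1 was at 737 CPM, also within its P60 range.

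The cells with the mitotic set at P21 were largely among barcodes outside the annotation. Of 12004 P21 barcodes, 151 (1.26%, exact 95% interval 1.07% to 1.47%) held 3 or more mitotic members, against 110 of 31791 at P60 (0.346%, 0.284% to 0.417%). These intervals cover counting error only. By library the share was 0.717, 2.02 and 1.33% at P21 and 0.123 to 0.650% at P60. Excitatory neurons made up 9 of the 151 and 33 of the 110. With 5 or more members the counts were 123 at P21 and 57 at P60. At P21, 116 of the 151 were not retained, 22, 54 and 40 in libraries 1, 2 and 3. At P60, 20 of the 110 were not retained, 12 of them in library 12. The methods set limits on mitochondrial UMIs and on genes per cell, with a higher gene limit for neurons. They also remove doublets and assign P21 cells to clusters by similarity. Only the limits of 10% mitochondrial UMIs and 800 genes were applied here. The methods on P21 cells name these 2 limits and doublets, and no separate gene limit for neurons. Under that neuron limit lay 73 of the 116 P21 barcodes, as did 1786 of the 10538 retained P21 cells of all types. Of the 116 P21 barcodes, 105 had at most 10% mitochondrial UMIs and all had at least 800 genes, with a median of 1372 genes and 2660 UMIs. Over all P21 barcodes, 10646 passed both limits, and 10538 of these were retained. The larger of these is the P21 cell count stated with the study, and the annotation table lists the smaller. Of the 108 in between, 105 (97.2%, exact 95% interval 92.1% to 99.4%) held the mitotic set: 20 of 20, 49 of 51 and 36 of 37 in the 3 libraries. At P60 the same limits left 4376 barcodes outside the annotation, of which 18 (0.411%) did. The 4376 were not screened for doublets or by the gene limit for neurons, so the ages are not compared like for like.

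**Figure D5:**
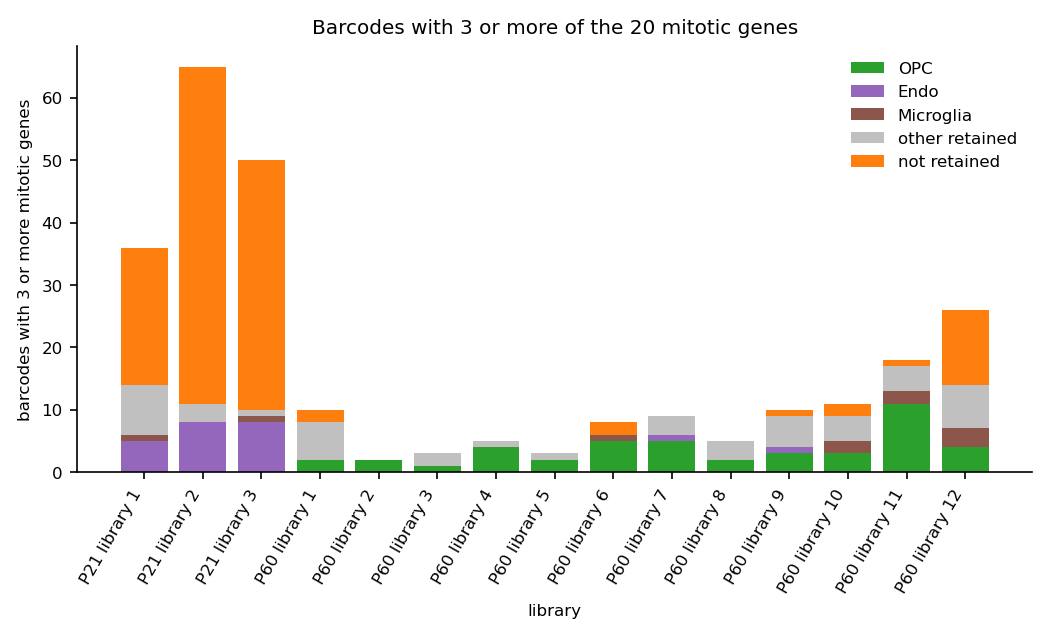
Number of barcodes with UMIs of 3 or more of the 20 mitotic genes in each library (bars from 0), split by annotated class or absence from the annotation (orange). P21 libraries have 36, 65 and 50 such barcodes, mostly not retained, and P60 libraries 2 to 26, mostly retained.

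The 116 barcodes, chosen by their mitotic members, had a median of 12 of them. Of genes the selection did not use, 2 or more replication members were found in 75.9% against 2.59% of the other P21 barcodes not retained, Hmgb2 was found in 115 of the 116 and in 6.07% of the others, and Rrm2 in 65.5% and 0.889%. Their cell type markers were mixed. Of the 116, 19 held 3 or more OPC markers, 11 held 3 or more neuroblast markers, 8 excitatory, 6 inhibitory and 6 endothelial markers. The NF Oligo, astrocyte, mural, microglial and mature oligodendrocyte lists were met by 4, 3, 3, 3 and 1, and 67 held 3 of no list. UMIs of Pdgfra without Dlx1 or Dlx2 were found in 28, UMIs of Dlx1 or Dlx2, transcription factors of the interneuron lineage, without Pdgfra in 42, both in 1 and neither in 45. Ccnd1 and Ccnd2 differed between the Dlx and the Pdgfra barcodes. Ccnd2 was at 4074 CPM (456 UMIs, found in all 42) in the Dlx barcodes and at 190 CPM (18 UMIs) in the Pdgfra barcodes, whereas Ccnd1 was at 71.5 CPM (8 UMIs) and 600 CPM (57 UMIs). High Ccnd2 was not limited to the Dlx barcodes. The 45 with neither had 1657 CPM of Ccnd2 (187 UMIs, found in 30) and 248 CPM of Ccnd1 (28 UMIs). The split was made after the values were seen and is given without a test. The kinds were also uneven between libraries, with 14 of the 28 Pdgfra barcodes in P21 library 1 and 41 of the 42 Dlx barcodes in libraries 2 and 3.

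When OPCs were instead taken from all deposited barcodes by markers (3 or more of the 6 OPC markers and fewer than 3 of every other list except NF Oligo and neuroblast), 57 were found at P21 and 673 at P60, of which 26 and 650 were retained. Of these, 12 of 38, 2 of 11 and 3 of 8 barcodes held 2 or more mitotic members in P21 libraries 1, 2 and 3. The saline P60 libraries with at least 10 such barcodes had 1.96 to 34.6% (10.6 ± 13.5%, n = 5), library 11 again being the highest, and P21 libraries 1 and 2 had 31.6 and 18.2%. The groups overlapped (exact permutation p = 0.286, in a design of 2 and 5 libraries that is too small to pass the threshold). The overlap came from library 11 alone, since saline libraries 2, 5, 7 and 12 had 1.96, 6.12, 5.66 and 4.84%. P21 library 3 (37.5%) was left out for having fewer than 10 such barcodes, and thinning left 1 P21 library, with 31.6%.

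Cocaine and saline libraries were compared in 1 fit of the 12 P60 libraries per cell type, as the mean of the contrasts at 3 time points, in 106 pairs of a member and a type. None was called by edgeR, where 0.00500% of all 60002 tests were, 6 of the 106 had an unadjusted p under 0.05, and DESeq2 called none. No member was called at maintenance, 48 h or 15 days taken alone, where 0.0100%, 0.00667% and 0.333% of all tests were called. The median change of the 106 was -0.05 on the log2 scale, and that of all genes was 0.01.

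The member nearest to a call was Mcm7 in OPCs. Its lowest, median and highest level was 28.4, 32.8 and 37.5 CPM in 6 cocaine libraries and 53.3, 74.7 and 106 CPM in 5 saline libraries, on 44 and 88 UMIs. Every saline library was above every cocaine library on the CPM scale, with a log2 change of -1.26 ± 0.30 and adjusted p = 0.0890 by edgeR, and adjusted p = 1.00 by DESeq2. The 3′ end of Mcm7 lies within 300 bases of the antisense gene Cops6, and an unannotated copy of 97.5% identity exists. Other members have such a neighbour: Ccnd1 (Oraov1), Ccnd3 (Bysl), Cdk4 (Tspan31), Ccne2 (Ints8), Ccna2 (Exosc9), Cdc20 (Elovl1), Plk1 (Ern2) and Ube2c (Tnnc2). Mki67 has a copy of 96.3% identity in Gm20449. Over the alternative fits the change of Mcm7 was -1.48 to -0.93 and the adjusted p 0.0166 to 1, and only the fit without P60 library 12 called it. Pcna (-0.59 ± 0.20, adjusted p = 0.640) and Ccnd1 (-0.26 ± 0.12, adjusted p = 0.996) in OPCs had the same sign and were not called. The share of OPCs with 2 or more members was 66.0 ± 3.47% in cocaine and 75.0 ± 7.13% in saline libraries, a difference within time points of -7.84 points (exact permutation within time points, p = 0.0463, adjusted p = 0.370 over 8 tests). For mitotic members it was 7.17 ± 4.75% and 9.75 ± 10.5% (exact permutation p = 0.778), which the spread between libraries does not separate. The higher saline mean rested on library 11 with 28.4%, while the other saline libraries had 3.92 to 6.08%, below the cocaine mean.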

How the data were processed

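Prefrontal cortex cells were dissociated with papain and their RNA was counted with the 10x Chromium 3′ assay. Per the submitters' processing notes the reads were handled with Cell Ranger (listed as 13.1), mm9 and Seurat 2.1.0. The deposited matrices hold raw UMI counts per gene and barcode, and the authors deposited an annotation with a mitochondrial fraction, a class and a cluster for the retained cells, after removing doublets. The 38 members and the further lists were chosen with earlier results of these data known.

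Types came from the cluster names. For each library and type with at least 10 cells, raw counts were summed, without 13 mitochondrial and 162 ribosomal protein genes. P21 was compared with saline P60, and cocaine with saline within P60 by time point, with edgeR 4.0.16 (quasi-likelihood, TMM, filter on low counts, Benjamini-Hochberg adjustment) in R 4.3.3, and DESeq2 1.42.0 was an alternative. Shares of cells used 20 draws of 2000 UMIs per cell and exact permutation tests (scipy 1.17.1). Other scalings, filters, depths and leaving out each library were tried. The fit was tested on simulated data with 200 changed genes. All members called between the ages, the member nearest to a call for cocaine, and the leading members of each role were named. In Endo, P21 libraries 2 and 3 were the most alike pair (chi-square per degree of freedom 1.69, against 2.17 to 11.4 for the others), which is still above sampling noise. Marker-based OPCs, the class column, the Endo subsets and the cocaine shares were added after seeing the data. Intervals cover counting error only.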

Additional observations from a re-analysis of the deposited data

Results flagged for a closer look

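In P60 library 11 (saline, 15 days after withdrawal), 28.4% of OPCs held 2 or more mitotic members after thinning, and the next of the 5 saline libraries had 6.08%. Its summed mitotic level in OPCs, 3745 CPM, was also far from the next value, 1237 CPM. In Endo, P60 library 5 had 0.554% of cells with 2 or more mitotic members where the next of 6 saline libraries had 0.142%. Cenpa in inhibitory neurons was at 37.2 CPM in P60 library 5, and the next saline library had 19.7 CPM. These values stood far from the others of their group by Dixon's criterion, which chance passes in about 1 of 20 groups, and 30 groups were examined. The causes were not tested.

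Ccnd1 changed in opposite directions between P21 and saline P60 in neurons and in Endo. Taken from the log2 CPM difference between the types within each library, averaged by age, and not from the fitted changes, the change in excitatory neurons exceeded that in Endo by 2.78, and the change in inhibitory neurons by 2.23. Ccnd1 was chosen because its calls in these same libraries went opposite ways, so the differences are a description, with no independent test. For inhibitory neurons the differences of the 2 ages overlapped.

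At P21, 116 barcodes outside the authors' annotation held 3 or more mitotic members. They entered no comparison of the annotated types, and 19 of them held 3 or more OPC markers.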

How the results depend on the processing

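No called value changed direction in the refitted models; in Endo cells with fewer than 3 mural markers, compared without a test, Cenpa had means of 10.2 CPM at P21 and 11.4 CPM at P60, the other way. For Endo, 8 members were called; without the filter on low counts 14 of 38 were (1752 of 17187 genes), with P21 libraries 2 and 3 summed 4 of 19 (1077 of 10536), and leaving out 1 library gave 4 to 9. For inhibitory neurons, 4 were called; DESeq2 gave 2 of 10 (1327 of 8831 genes), all 12 P60 libraries 2 of 11 (2003 of 9281), P21 libraries 2 and 3 summed 2 of 11 (981 of 9144), and leaving out 1 library 2 to 4. For astrocytes, none was called; without the filter 2 of 35 were (335 of 15789 genes), and leaving out 1 library gave 0 to 1 (1 without P21 library 1). For cocaine, leaving out 1 library gave 0 to 1 (1 without P60 library 12). Shares of all genes are not given for the fits that left out 1 library, so those counts have no background beside them. The Endo difference for 2 or more members, -12.6 points, was -7.27 when thinned to 1000 UMIs (adjusted p = 0.0714, exact permutation) and -7.11 without thinning (adjusted p = 0.143), and lay between -14.9 and -11.4 when 1 library was left out. For mitotic members, -1.21 points, it was -0.600 at 1000 UMIs (adjusted p = 0.0714) and -2.74 without thinning (adjusted p = 0.107), and lay between -1.54 and -0.971. With 1 library fewer these share tests did not pass the threshold after adjustment; with 2 P21 libraries the smallest possible p is 0.0714. The causes were not tested. Of 251 other fits of the 18 called pairs of a member and a type, 213 kept the call and 38 lost it, all in the same direction. With OPCs from the class column (51 P21 cells, of which 29 lie in neuron clusters), 6 of 19 members and 993 of 4828 genes were called between the ages. No paired analysis was possible because no library number is shared by the groups as an animal, litter or day.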
